A study of Homo sapiens with 9 samples.

Results

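The 40 sgRNAs against 4 genes of the Fanconi anaemia pathway, FANCF, FANCL, UBE2T and SLX4, were followed through a pooled screen of U251 cells, an established human glioma line, under temozolomide. They were taken by the target gene named for each guide in the deposited table, 10 guides per gene, out of 11170 guides against 1117 genes. Cells carrying the sgRNAs stably were exposed for 72 hours to 0, 200 or 1500 µM temozolomide, with 3 libraries per dose, numbered 1 to 3. The doses carry µM in the sample titles but nM in the treatment protocol, and the titles' unit is kept here only to name the groups. All groups shared the cell line, the pool and the serum-containing medium. The labels state neither the nuclease nor whether the numbers mark separate cultures, and no plasmid pool or library from before treatment was analysed here. P-values therefore rest on the scatter among these 9 libraries, part or all of which may be technical. Guide counts say nothing of which cell types were present, so the cell line could not be checked against its markers.

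The Fanconi anaemia pathway repairs DNA crosslinks that block replication forks. Its core complex holds FANCF, an adaptor that keeps the complex together, and FANCL, the RING-type ubiquitin ligase that works with the ubiquitin-conjugating enzyme UBE2T to attach a single ubiquitin to FANCD2 and FANCI. SLX4, also known as FANCP, is a scaffold that brings structure-specific nucleases to the lesion. Temozolomide methylates DNA bases, and its toxic lesion is usually ascribed to O6-methylguanine, which is handled by direct reversal and mismatch repair. A guide that becomes scarcer under the drug than without it is usually read as marking a target whose loss sensitises cells. A guide that becomes more abundant is read the opposite way. Such a reading assumes that the guide disrupts its target, and the labels do not state the nuclease. In the reference gene table FANCF lies on chromosome 11, FANCL on chromosome 2, UBE2T on chromosome 1 and SLX4 on chromosome 16.

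The guides against these genes did not change detectably in share at either dose. In edgeR's quasi-likelihood test of dose alone, none of the 38 tested member guides passed an adjusted p of 0.05 in any comparison. None of the 4 genes did so as summed counts. Of all 10337 tested guides 0% passed, and of all 1117 genes 0%, so the lack of calls was not particular to these members. At 1500 µM the summed level of all 4 genes was slightly above that at 0 µM, by 1.03-fold for FANCL to 1.197-fold for UBE2T, and every interval of the change reached to both sides of no change. The spread between replicate numbers was larger than the difference between doses for FANCL, UBE2T and SLX4.

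Total counts per library lay between 1852340 and 2790563, an average of 166 to 250 counts per guide. Levels are given as CPM, which are counts scaled to the same library size after adjusting each total by a TMM factor of 0.824 to 1.15. Where a guide was at 0, up to 3 counts remain possible, or 1.06 to 1.83 CPM depending on the library. These floors, and the Poisson interval given for a level below, cover counting error only. The intervals of fold changes come from the fits and include the spread between libraries. Of the 40 member guides, 38 had at least 10 counts in at least 3 libraries and were tested, as were 10337 guides in all. The guides that were not tested were FANCL.3, with at most 62 counts in any library, and UBE2T.5, with at most 46.

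FANCL guides were together the most abundant of the 4 sets and UBE2T guides the scarcest. FANCL had 666, 884 and 814 CPM at 0 µM, 444, 1189 and 726 CPM at 200 µM, and 642, 997 and 796 CPM at 1500 µM, for replicates 1, 2 and 3. Replicate 2 was the highest of its dose for FANCL each time, and the 3 doses overlapped. SLX4 had 687, 572 and 551 CPM at 0 µM, 674, 706 and 502 CPM at 200 µM, and 958, 653 and 512 CPM at 1500 µM. Replicate 1 at 1500 µM stood above the other 8 libraries for SLX4, and replicate 3 was the lowest of its dose each time.

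FANCF had 562, 464 and 564 CPM at 0 µM, 597, 597 and 556 CPM at 200 µM, and 599, 549 and 504 CPM at 1500 µM. These were the steadiest values of the 4 genes, with the highest library 1.29 times the lowest, against 1.91 times for SLX4, 2.43 times for UBE2T and 2.68 times for FANCL. UBE2T had 383, 202 and 412 CPM at 0 µM, 380.2, 323 and 343 CPM at 200 µM, and 491, 244 and 458 CPM at 1500 µM. Replicate 2 was the lowest UBE2T library at each dose.

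The order of the mean levels was the same at each dose. At 0 µM the means were 788 ± 111 CPM for FANCL, 603 ± 73.4 CPM for SLX4, 530.0 ± 56.9 CPM for FANCF and 332 ± 114 CPM for UBE2T (SD, n = 3). UBE2T was the lowest of the 4 in 9 of 9 libraries and its values did not overlap those of FANCF at any dose. FANCL was the highest in 6 libraries, replicates 2 and 3 of each dose, and SLX4 in the 3 libraries of replicate 1, so that FANCL and SLX4, and likewise SLX4 and FANCF, overlapped in range. Against the other genes of the screen these were low levels, since 38.0% of the 1117 genes had a lower mean than FANCL at 0 µM, 22.7% a lower mean than SLX4, 18.5% a lower mean than FANCF and 9.94% a lower mean than UBE2T. A level reflects the pool as well as growth, and the part of either was not tested. Counting error was small beside these differences: the lowest sum, 420 UBE2T counts in replicate 2 at 0 µM, had an exact Poisson 95% interval of 183 to 222 CPM.

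The comparison of 1500 with 0 µM asked whether cells with these guides were more or less frequent after the highest dose than without drug. For UBE2T, summed over its guides, the log2 fold change was 0.26 ± 0.43 (SE), with a 95% interval of 0.604-fold to 2.37-fold. For SLX4 the value was 0.23 ± 0.33, with an interval of 0.697-fold to 1.97-fold. FANCF had 0.055 ± 0.29 and an interval of 0.654-fold to 1.65-fold, and FANCL had 0.043 ± 0.30 and an interval of 0.638-fold to 1.66-fold. Each of the 4 had an adjusted p of 0.999 in edgeR's quasi-likelihood test with 3 libraries per group, and 0% of the 1117 genes passed, with 4 genes at an unadjusted p under 0.05, none of them a member. DESeq2 called 1 gene, which was no member. Levels as low as 0.604 to 0.697 of the untreated level, depending on the gene, lay inside these intervals. With the replicate number as a block the intervals were narrower, at 0.870-fold to 1.65-fold for UBE2T, 0.884-fold to 1.47-fold for SLX4, 0.797-fold to 1.36-fold for FANCF and 0.812-fold to 1.28-fold for FANCL, so such levels lay outside them, and each still held no change.

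In the fit without the block, the sign of these changes could turn when a single library was left out. Each fit that left out 1 library, here and below, had no block and kept the other libraries of that replicate number. How far the shifts reflect the replicate number was not tested. Without replicate 1 at 1500 µM the log2 fold change of SLX4 was -0.051 and that of FANCF -0.010. Without replicate 2 at 0 µM it was -0.032 for FANCF and -0.00016 for UBE2T, and for FANCL it was -0.13 without replicate 2 at 1500 µM and -0.065 without replicate 1 at 0 µM. Within replicate numbers 1, 2 and 3, the log2 ratio of 1500 to 0 µM was 0.36, 0.28 and 0.15 for UBE2T, which was the only member above 0 in all 3. It was 0.48, 0.19 and -0.10 for SLX4, 0.093, 0.24 and -0.16 for FANCF, and -0.053, 0.17 and -0.032 for FANCL. Of all genes 6.36% were higher in all 3 replicate numbers and 30.1% lower in all 3, and no member was lower in all 3.

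With all libraries kept, the members lay on the high side of the screen at 1500 against 0 µM. The median log2 fold change of all 1117 summed genes was -0.15 under this scaling, and 95.4% of genes had a lower value than UBE2T, 94.6% a lower value than SLX4, 83.3% a lower value than FANCF and 80.7% a lower value than FANCL. In the fit without the block these shares were lower when certain single libraries were left out, which also breaks the pairing by replicate number. They were 60.4% for UBE2T and 57.3% for FANCF without replicate 2 at 0 µM. For SLX4 the share was 62.3% without replicate 1 at 1500 µM, and for FANCL 57.1% without replicate 1 at 0 µM. With the block and all libraries kept, the shares were 94.7% for UBE2T, 91.9% for SLX4, 80.8% for FANCF and 76.9% for FANCL. Scarce genes had higher values in general. When genes were put in 4 bins by their level over the 9 libraries, the 280 genes of the lowest bin, FANCF and UBE2T among them, had a median of -0.096, the 279 of the next, FANCL and SLX4 among them, had -0.14, and the 279 of the highest had -0.21. Within their own bin, 97.5% of genes had a lower value than SLX4, 85.7% a lower value than UBE2T, 80.3% a lower value than FANCL and 66.4% a lower value than FANCF. These positions describe the libraries and carry no test.

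Guide by guide, 28 of the 38 tested member guides had a log2 fold change above 0 at 1500 against 0 µM. Their median was 0.18, against -0.058 over all tested guides, of which 45.2% were above 0. With the replicate block 27 were above 0 with a median of 0.35, against 0.0025 over all tested guides. No member guide passed in edgeR and 0% of all tested guides did, with 21 of 10337 at an unadjusted p under 0.05 and none of these a member. DESeq2 also called none, with 61 guides at an unadjusted p under 0.05. Of the 38 guides, 9 were higher at 1500 than at 0 µM within all 3 replicate numbers, or 23.7%, against 12.1% of all tested guides, and 2 were lower in all 3, or 5.26%, against 12.6%. The 9 higher guides came from all 4 genes and the 2 lower guides both targeted FANCF.

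FANCF guides pointed in both directions. FANCF.9 had 47.5, 58.1 and 42.8 CPM at 0 µM, 60.1, 39.9 and 60.6 CPM at 200 µM, and 87.9, 90.2 and 68.8 CPM at 1500 µM. Its 3 libraries at 1500 µM lay above the 6 at the lower doses, and among FANCF guides it had the highest ratio of 1500 to 0 µM, with a log2 fold change of 0.73 ± 0.61 (SE). FANCF.4 lay the other way, with 49.4, 23.0 and 50.7 CPM at 0 µM, 26.1, 15.0 and 21.9 CPM at 200 µM, and 22.3, 22.9 and 21.0 CPM at 1500 µM, and a log2 fold change of -0.89 ± 0.80 (SE). The values of FANCF.4 at 1500 µM were below those of all 3 untreated libraries, though nearly equal in replicate 2. Both guides had an adjusted p of 1.00 in edgeR's quasi-likelihood test.

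Other FANCF guides were set by the replicate number. FANCF.8, the most abundant FANCF guide in sum, had 272, 256 and 175 CPM in replicate 3 at 0, 200 and 1500 µM and at most 22.5 CPM in any of the 6 other libraries. FANCF.7 was high in replicate 1 instead, with 188, 272 and 167 CPM, against at most 47.7 CPM in the other libraries. FANCF.1 had 115, 16.3 and 19.7 CPM at 0 µM and 146, 38.7 and 43.6 CPM at 1500 µM, higher in all 3 numbers, but its values at 200 µM were 103, 58.5 and 6.35 CPM. Over the 10 FANCF guides the median log2 fold change at 1500 against 0 µM was 0.11 with 7 above 0.

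The FANCL guides were dominated by 2 of their number. FANCL.8 held 47.6% of all FANCL counts, with 541, 226 and 450.3 CPM at 0 µM, 288, 338 and 403 CPM at 200 µM, and 431, 251 and 436 CPM at 1500 µM. Between 1500 and 0 µM it had a log2 fold change of -0.12 ± 0.79 (SE), with overlapping groups. FANCL.5 was abundant in replicate 2 alone, with 486, 501 and 442 CPM at 0, 200 and 1500 µM, while its other libraries had 35.6 to 104 CPM. With FANCL.8 it held 71.4% of FANCL counts.

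The scarcer FANCL guides included the ones with the largest ratios. FANCL.10 had 26.2, 10.6 and 53.1 CPM at 0 µM, 26.5, 52.3 and 48.0 CPM at 200 µM, and 58.5, 36.7 and 83.5 CPM at 1500 µM, higher than untreated in each replicate number at 1500 µM. Its log2 fold change there was 0.99 ± 0.85 (SE). FANCL.2 was higher than untreated in each number at both doses, with 3.66, 62.4 and 7.38 CPM at 0 µM, 17.2, 95.3 and 15.5 CPM at 200 µM, and 15.8, 84.9 and 36.5 CPM at 1500 µM, and a log2 fold change between 1500 and 0 µM of 0.897 ± 1.25 (SE). FANCL.7 had -0.77, the lowest value among FANCL guides, and was at 0 counts in replicate 1 at 1500 µM. FANCL.4 had the highest value of all member guides, 1.81, but it was at 0 counts in 5 of 9 libraries and at no more than 42 counts in the rest. Neither FANCL.10 nor FANCL.2 passed, with an adjusted p of 1.00 each in edgeR's quasi-likelihood test.

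UBE2T, the partner enzyme of FANCL, had the guide with the lowest p-value of the 38. UBE2T.1 had 20.7, 28.8 and 33.5 CPM at 0 µM, 118, 34.2 and 5.29 CPM at 200 µM, and 108, 51.5 and 69.7 CPM at 1500 µM. All 3 libraries at 1500 µM lay above all 3 at 0 µM, whereas the libraries at 200 µM ran from below to above both. Between 1500 and 0 µM it had a log2 fold change of 1.47 ± 0.698 (SE), with a 95% interval of -0.16 to 3.09, an unadjusted p of 0.0707 and an adjusted p of 1.00 in edgeR's quasi-likelihood test, or 0.0355 and 0.997 with the replicate block. The most abundant UBE2T guide, UBE2T.8, had 64.6, 38.9 and 91.5 CPM at 0 µM, 52.1, 75.1 and 101 CPM at 200 µM, and 85.8, 40.6 and 108 CPM at 1500 µM, with a log2 fold change of 0.27 ± 0.71 (SE) and overlapping groups. Of the 9 tested UBE2T guides 8 were above 0, with a median of 0.27.

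UBE2T.9 showed how far a guide could depend on the replicate number. It had 293, 237 and 330 counts in replicate 1 at 0, 200 and 1500 µM and at most 23 counts in the other 6 libraries. UBE2T.4 never exceeded 31 counts, and UBE2T.5 was at 0 counts in 5 of 9 libraries. UBE2T.10 was higher at 200 than at 0 µM in each number, with 40.2, 17.6 and 33.1 CPM against 17.7, 11.0 and 12.3 CPM, but it had 8.97, 7.64 and 47.4 CPM at 1500 µM.

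For SLX4, the nuclease scaffold, SLX4.8 held 44.7% of the counts. It had 347, 215 and 279 CPM at 0 µM, 350.2, 276 and 201 CPM at 200 µM, and 474, 231 and 221 CPM at 1500 µM. The log2 fold change between 1500 and 0 µM was 0.14 ± 0.72 (SE), and the groups overlapped. SLX4.3, with 108, 66.7 and 70.9 CPM at 0 µM, 93.2, 85.5 and 69.1 CPM at 200 µM, and 196, 105 and 83.1 CPM at 1500 µM, was higher than untreated in each number at 1500 µM, with a log2 fold change of 0.64 ± 0.65 (SE).

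The less abundant SLX4 guides varied in both directions. SLX4.10 was higher than untreated in each number at both doses, with 4.87, 61.9 and 43.3 CPM at 0 µM, 19.0, 81.3 and 58.9 CPM at 200 µM, and 15.1, 73.5 and 57.5 CPM at 1500 µM. SLX4.6 was higher at 1500 µM in each number from a low base, with 23.0, 7.64 and 10.9 CPM against 14.0, 6.24 and 6.89 CPM at 0 µM. SLX4.1 had the lowest log2 fold change of all member guides, -1.58 ± 2.47 (SE), but never exceeded 56 counts and was at 0 in 4 libraries. SLX4.9 was lower at 200 than at 0 µM in each number, with 67.6, 56.5 and 38.1 CPM against 93.8, 63.9 and 52.2 CPM. Over the 10 guides the median at 1500 against 0 µM was 0.39, with 7 above 0.

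At 200 against 0 µM, which shares the untreated libraries with the comparison above, no member passed either. Summed over guides, the log2 fold change was 0.14 ± 0.28 for FANCF, -0.0041 ± 0.40 for FANCL, 0.0697 ± 0.39 for UBE2T and 0.056 ± 0.29 for SLX4 (SE), beside a median of -0.14 over all genes. The adjusted p was 1.00 for each in edgeR's quasi-likelihood test with 3 libraries per group, and 0% of genes and 0% of guides passed, with 2 genes and 13 guides at an unadjusted p under 0.05, and DESeq2 called none of either. The 95% intervals reached from 0.708-fold to 1.71-fold for FANCF and from 0.528-fold to 1.88-fold for FANCL. With the replicate block they were narrower, at 0.863-fold to 1.41-fold for FANCF and 0.669-fold to 1.29-fold for FANCL, and each still held no change. The log2 fold change of FANCL was -0.11 ± 0.20 (SE) with the block. Without the block, the value of FANCL turned above 0, to 0.28, 0.086, 0.050 and 0.020, without replicate 1 at 200 µM, replicate 2 at 0 µM, replicate 3 at 200 µM or replicate 3 at 0 µM. UBE2T turned to -0.19 without replicate 2 at 0 µM, and SLX4 to -0.037 without replicate 2 at 200 µM and to -0.0058 without replicate 3 at 0 µM.

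Replicate 2 differed from the others in its ratio of 200 to 0 µM. Replicate 2 was also the lowest untreated library for FANCF, at 464 CPM, and for UBE2T, at 202 CPM, but not for FANCL or SLX4. Its log2 ratio of 200 to 0 µM was 0.36 for FANCF, 0.43 for FANCL, 0.68 for UBE2T and 0.30 for SLX4, whereas replicate 1 had 0.087, -0.58, -0.011 and -0.027 for these genes, and replicate 3 had -0.020, -0.17, -0.26 and -0.13. The median over all genes was -0.070 in replicate 2, -0.14 in replicate 1 and -0.11 in replicate 3. No member was on the same side in all 3 numbers, against 6.18% of genes higher and 30.9% lower in all 3. Of the 38 guides 25 were above 0 in the fit, with a median of 0.11, against -0.064 over all guides, of which 44.3% were above 0. With the replicate block 20 were above 0 and the median was 0.015, against -0.055 over all guides, of which 46.0% were above 0. Within replicate numbers, 5 of the 38 were higher in all 3, or 13.2%, against 10.1% of all tested guides, and 2 were lower in all 3, against 13.8%. Scaled by library totals, 7 of the 38 were higher in all 3, against 15.5% of all tested guides, and 2 were lower, against 8.46%. That scaling moved the median gene to 0.022 and the 4 members to 0.29 for FANCF, 0.12 for FANCL and 0.21 for both UBE2T and SLX4, so the balance of higher and lower values at 200 µM depended on it.

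Between the doses, at 1500 against 200 µM, the sums had a log2 fold change of -0.083 ± 0.25 for FANCF, 0.047 ± 0.39 for FANCL, 0.19 ± 0.36 for UBE2T and 0.17 ± 0.32 for SLX4 (SE), beside a median of -0.020 over all genes. The adjusted p was 0.999 for each in edgeR's quasi-likelihood test with 3 libraries per group, and 0% of genes and 0% of guides passed, with 1 gene and 21 guides at an unadjusted p under 0.05. DESeq2 called 1 gene, no member, and no guide. FANCL turned to -0.24, -0.13 and -0.0077 without replicate 1 at 200 µM, replicate 2 at 1500 µM or replicate 3 at 200 µM, and SLX4 to -0.11 without replicate 1 at 1500 µM. No member was on the same side in all 3 replicate numbers, against 12.1% of genes higher and 15.8% lower. Of the 38 guides 23 were above 0 in the fit, with a median of 0.051, against 0.0042 over all guides, of which 50.3% were above 0. With the replicate block 26 were above 0 and the median was 0.29, against 0.046 over all guides, of which 53.4% were above 0. Within replicate numbers, 3 of the 38 were higher in all 3, or 7.89%, against 13.3% of all tested guides, and 2 were lower, against 11.5%. Scaled by library totals, which put the median gene at -0.15, 3 were higher, against 8.52% of all tested guides, and 4 were lower, against 16.5%. The median guide log2 fold change of FANCF was -0.17 without the replicate block and 0.45 with it. With the block the sums had -0.086 ± 0.16 for FANCF, 0.13 ± 0.14 for FANCL, 0.13 ± 0.21 for UBE2T and 0.14 ± 0.15 for SLX4 (SE).

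A fit of the dose step took all 9 libraries, with the doses coded 0, 1 and 2. With 3 libraries per dose its slope is set by the 1500 and 0 µM libraries, so it restates that comparison per step, with the spread taken from all 9 libraries, and is no separate evidence. The log2 fold change per step was 0.13 ± 0.18 for UBE2T, 0.12 ± 0.14 for SLX4, 0.027 ± 0.11 for FANCF and 0.021 ± 0.17 for FANCL (SE), beside a median of -0.075 over all genes. The adjusted p was 0.999 for each in edgeR's quasi-likelihood test, and 0% of genes and 0% of guides passed, with 12 genes and 35 guides at an unadjusted p under 0.05. DESeq2 called 2 genes, neither a member, and no guide. The intervals reached from 0.861-fold to 1.21-fold per step for FANCF and from 0.837-fold to 1.43-fold per step for UBE2T, and with the replicate block from 0.910-fold to 1.14-fold and from 0.936-fold to 1.28-fold. Without replicate 1 at 1500 µM the value of SLX4 was -0.019, without replicate 2 at 0 µM that of FANCF was -0.021, and that of FANCL was -0.061 without replicate 2 at 1500 µM and -0.027 without replicate 1 at 0 µM.

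The replicate number accounted for more of the variation of FANCL, UBE2T and SLX4 than the dose did. On the log2(CPM + 1) scale it held 76.2% of the sum of squares over the 9 libraries for FANCL, 70.4% for UBE2T and 67.5% for SLX4, while the dose held 2.36%, 7.39% and 8.57%. FANCF was unlike them, with 26.1% by replicate number, 25.7% by dose and 48.2% by neither. These are shares of a small total, since its highest library was 1.29 times its lowest. Its mean was highest at 200 µM, with 530, 583 and 551 CPM at 0, 200 and 1500 µM. The median gene of the screen had 81.2% by replicate number and 6.46% by dose. Among tested member guides, 23 of 38 had more than 50% of their summed CPM in the libraries of 1 replicate number, or 60.5%, against 65.9% of all tested guides, and 8 had more than 80%, or 21.1%, against 13.6%. The 8 were FANCF.7, FANCF.8, FANCL.4, FANCL.5, FANCL.9, UBE2T.9, SLX4.1 and SLX4.5. With the replicate number as a block in edgeR's quasi-likelihood test the adjusted p at 1500 against 0 µM was 0.912 for FANCF, 0.942 for FANCL, 0.658 for UBE2T and 0.671 for SLX4. With the block 0.179% of genes passed at 1500 against 0 µM and 0.179% over the dose step, 2 genes each time and no member, and 0% passed in the other comparisons.

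Of 59 genes listed for the Fanconi pathway and neighbouring repair routes, 18 were targeted in the table, the 4 members included. In edgeR without the block, none of the 18 passed in either direction in any comparison, and 0% of all 1117 genes did. UBE2A alone of the 18 had an unadjusted p under 0.05, in 3 of the 4 fits. C1orf86, the table's name for the core complex subunit FAAP20, had a log2 fold change of -0.29 ± 0.55 (SE) at 1500 against 0 µM. FAN1, a nuclease that acts with FANCD2 and FANCI, had -0.33 ± 0.41. UBE2W, a ubiquitin-conjugating enzyme reported to work with FANCL, had 0.056 ± 0.54, and UHRF1, which binds crosslinked DNA, had 0.19 ± 0.36. In the recombination list RFWD3, the ubiquitin ligase also called FANCW, had 0.38 ± 0.78, BRCA1 had -0.16 ± 0.38 and BRCA2 had -0.093 ± 0.46. Each of these changes was smaller than its SE. The 6 translesion synthesis genes had a median of -0.043. UBE2A, which works with RAD18 on stalled forks, was the only one of the 18 to pass in edgeR's quasi-likelihood test with the block. It passed at 1500 against 0 µM (adjusted p = 0.00274), where 0.179% of all genes did. It was higher at 1500 µM, with a log2 fold change of 3.92 ± 0.53 (SE) with the block and 3.98 ± 1.22 (SE) without it, and its summed level averaged 111324 ± 100328 CPM at 1500 µM, against 7041 ± 5768 CPM in untreated libraries (SD, n = 3 each). The median log2 fold change over its guides was 0.037, so its typical guide did not share the change of the sum. UBE2A was also the gene that DESeq2 called without the block at 1500 against 0 µM. None of the 10 genes listed for handling the temozolomide lesion, MGMT and the mismatch repair genes among them, was analysed here.

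Over the 9 libraries, after the mean of each replicate number was removed, the summed levels of the 4 genes correlated with each other at 0.33 (FANCF and FANCL) to 0.77 (UBE2T and SLX4). The genes most like FANCF were ZFAND6 (r = 0.955), PRPF19 (0.934) and WWP1 (0.837). Those most like FANCL were DDA1 (r = 0.943), RNF39 (0.926) and TRIM13 (0.902). UBE2T was most like BTBD6 (r = 0.946), KLHL36 (0.882) and TRIM13 (0.879), and SLX4 was most like PSMA6 (r = 0.934), GID4 (0.934) and AXIN2 (0.883). These are the highest of 1116 values for each gene over 9 libraries that share their scaling, and they describe the libraries only. No member was among the 3 nearest genes of another.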

How the data were processed

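DNA libraries of sgRNAs from U251 cells were counted by the authors, who deposited 1 table of raw counts per guide for 9 libraries. Per the submitters' processing notes, cutadapt 1.18 and MAGeCK 0.5.8 were used with build hg19. The sources used here give neither mismatch settings nor guide sequences. Counts were used as deposited.

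A guide was tested if 3 or more of the 9 libraries held 10 or more counts of it. TMM factors from these guides, over all 9 libraries, scaled both guide counts and counts summed over the 10 guides of a gene. Each pair of doses and the dose step (coded 0, 1, 2) was fitted with edgeR 4.0.16's quasi-likelihood test (robust, R 4.3.3), without a block, and Benjamini-Hochberg adjustment ran over all guides or all genes. SEs were taken from the log2 fold change and the F statistic (its size divided by the root of F), and intervals use the fit's degrees of freedom. Log2 ratios within a replicate number use CPM + 1. DESeq2 1.42.0 was an alternative. The scripts were tested on simulated data. Python 3.11.15 was used for the summaries.

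Replicate numbers come from the sample titles. In the 9 pairs of same-numbered libraries, the correlation of deviations from the mean of the dose was 0.67 to 0.78 over tested guides. It was always above the limit of 0.1 used here for pairing. The main fits and the fits that left out 1 library did not use this pairing. Their SEs and intervals therefore also hold differences between replicate numbers. For UBE2T at 1500 against 0 µM the SE was 0.43 without the block and 0.22 with it.

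The members and lists were chosen with earlier results of these data known. The rule for named genes took the 4 members with their guides, the listed pathway genes and the 3 genes most like each member. Guides named singly were chosen after their values were seen. Genes were matched to RefSeq names of GRCh38.p14 without coordinates, since the builds differ.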

Additional observations from a re-analysis of the deposited data

How the results depend on the processing

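No setting gave a member gene an adjusted p under 0.05 on summed counts, in edgeR or DESeq2. The fits that left out 1 library at a time were run in edgeR without the block. Over them, the log2 fold change at 1500 against 0 µM ran from -0.032 to 0.12 for FANCF, -0.13 to 0.19 for FANCL, -0.00016 to 0.51 for UBE2T and -0.051 to 0.42 for SLX4. At 200 against 0 µM it ran from -0.43 to 0.28 for FANCL, -0.19 to 0.25 for UBE2T and -0.037 to 0.19 for SLX4. At 1500 against 200 µM it ran from -0.24 to 0.47 for FANCL and -0.11 to 0.36 for SLX4. Per dose step it ran from -0.021 to 0.064 for FANCF, -0.061 to 0.086 for FANCL and -0.019 to 0.197 for SLX4. FANCL at 200 against 0 µM, near 0 in the fit, turned to 0.074 with DESeq2, 0.0058 with DESeq2 and the replicate block, 0.12 with library totals and 0.21 without each gene's most abundant guide. At 1500 against 200 µM FANCL turned to -0.071 with library totals and -0.013 without the most abundant guide. The cause was not tested.

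With the replicate block in edgeR 2 summed genes passed at 1500 against 0 µM and 2 over the dose step, none of them a member, and the block changed no call of a member. With DESeq2 1 gene passed at 1500 against 0 µM, 1 at 1500 against 200 µM and 2 over the dose step. With DESeq2 and the replicate block 3, 1, 17 and 13 genes passed at 1500 against 0 µM, at 200 against 0 µM, at 1500 against 200 µM and over the dose step, and 9, 8, 20 and 6 guides, none against a member. Member guides lower in all 3 replicate numbers at 1500 against 200 µM numbered 4 with library totals, or 10.5% against 16.5% of all tested guides, and 2 with TMM, or 5.26% against 11.5%. The median guide log2 fold change of FANCF was 0.38 with the block and 0.11 without it at 1500 against 0 µM, and 0.45 with it and -0.17 without it at 1500 against 200 µM. That of FANCL at 1500 against 0 µM was -0.0095 with the block and 0.092 without it. Depth limits the scarce guides, FANCL.3, FANCL.4, UBE2T.4 and UBE2T.5 above all.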
